A study of Mus musculus with 6 samples.

Results

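Inducible heat shock genes and their co-chaperones were followed across 6 droplet single-cell RNA libraries labelled as 4T1, a mouse mammary carcinoma. The set holds 10 genes, Hspa1a, Hspa1b, Hspb1, Hspa8, Dnajb1, Hsph1, Hsp90aa1, Hsp90ab1, Chordc1 and Ahsa2, out of 28649 gene names in the matrices. They were chosen by name because earlier results of these data showed some of them lower and others higher in the libraries labelled shPgk1, so the differences between the libraries of each label are a description of the members, and no p-value is given for a member. 4T1 is an established epithelial line from a mouse mammary tumour. Per the labels, cells received lentivirus carrying a non-targeting hairpin (shNC, 3 libraries) or a hairpin against Pgk1 (shPgk1, 3 libraries), and puromycin at 2 µg/mL, begun after 48 hours, selected stable lines over 7 days in both groups. Pgk1 encodes phosphoglycerate kinase, a glycolytic enzyme. The sources used here do not say whether the lines are clones, whether animals were used, or what distinguishes the replicates, so p-values measure only the spread between these samples.

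Heat shock proteins are chaperones that keep other proteins folded. When proteins unfold, the transcription factor HSF1 binds heat shock elements, arrays of GAA and TTC units in promoters, and transcription of the inducible HSP70 genes Hspa1a and Hspa1b and of the small heat shock protein gene Hspb1 is switched on. HSP70 works with J-domain partners such as Dnajb1 and with nucleotide exchange factors such as Hsph1, while HSP90 passes its clients through a cycle paced by co-chaperones, among which Chordc1 and the Ahsa1 relative Ahsa2 are counted. Tissue dissociation and warming are known to induce the same genes in single-cell preparations.

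The libraries held between 78778073 and 128933960 counts, in 42902 barcodes, of which 41434 were kept and 35594 fell in 6 lineages named from markers. These were tumour-like cells (Epcam, Krt8), monocyte or macrophage-like cells (Csf1r, Cd68), T or NK-like cells (Cd3e), neutrophil-like cells (S100a8), fibroblast-like cells (Col1a2) and endothelial-like cells (Cdh5), although the labels describe the 4T1 line alone. Of the other kept cells, 1015 fell in other named classes and 4825 stayed unnamed. Pairs of libraries shared 1234 to 1671 barcode names, which are running labels that carry no sequence. Levels are counts-per-million values (CPM), computed from the counts summed over the cells of a lineage in a library, and values are given for libraries 1, 2 and 3 of each label in that order. In tumour-like cells the targeted gene Pgk1 was at 286, 244 and 217 CPM in shNC and 244, 298 and 324 CPM in shPgk1. Its level did not fall with the label, so directions below refer to the labels and not to a measured loss of Pgk1. The share of kept cells that were tumour-like was 26.4, 31.6 and 39.3% in shNC and 44.9, 48.9 and 47.2% in shPgk1, so sums over all cells mix lineages in different shares in each group.

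Promoters are shown for the members on which the opposite moves turn, with Hspa1a, Hspa1b and Hspb1 lower and Chordc1 and Ahsa2 higher in the shPgk1 libraries. Of the 10 members, 7 matched a RefSeq promoter (GRCm38.p6), which runs from 250 bases before the start to 50 bases after it. Capitals mark GAANNTTC and TTCNNGAA, the pairs of units of a heat shock element. Each reads the same on both strands, and in longer runs they overlap.
Hspa1a: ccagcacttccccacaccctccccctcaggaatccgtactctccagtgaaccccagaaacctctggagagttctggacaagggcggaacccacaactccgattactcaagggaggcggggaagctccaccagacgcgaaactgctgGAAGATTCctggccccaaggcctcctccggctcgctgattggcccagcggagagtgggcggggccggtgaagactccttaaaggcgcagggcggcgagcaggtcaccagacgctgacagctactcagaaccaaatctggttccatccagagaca
Hspa1b: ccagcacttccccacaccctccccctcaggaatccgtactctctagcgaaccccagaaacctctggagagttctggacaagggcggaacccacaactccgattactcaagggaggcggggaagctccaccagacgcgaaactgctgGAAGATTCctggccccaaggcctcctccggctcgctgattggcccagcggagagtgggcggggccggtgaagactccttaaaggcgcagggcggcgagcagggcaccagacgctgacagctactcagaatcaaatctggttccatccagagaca
Hspb1: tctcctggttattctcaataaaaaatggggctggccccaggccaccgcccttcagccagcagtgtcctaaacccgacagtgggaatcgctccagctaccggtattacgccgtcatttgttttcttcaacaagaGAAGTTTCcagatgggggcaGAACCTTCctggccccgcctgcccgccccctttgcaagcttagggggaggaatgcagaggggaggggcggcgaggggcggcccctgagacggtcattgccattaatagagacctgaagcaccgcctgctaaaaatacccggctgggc
Chordc1: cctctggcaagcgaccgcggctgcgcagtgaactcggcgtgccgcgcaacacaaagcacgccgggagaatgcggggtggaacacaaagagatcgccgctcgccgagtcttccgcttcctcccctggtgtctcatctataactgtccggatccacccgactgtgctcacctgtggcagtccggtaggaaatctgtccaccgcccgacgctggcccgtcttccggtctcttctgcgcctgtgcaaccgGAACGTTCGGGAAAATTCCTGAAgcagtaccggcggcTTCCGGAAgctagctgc
Ahsa2: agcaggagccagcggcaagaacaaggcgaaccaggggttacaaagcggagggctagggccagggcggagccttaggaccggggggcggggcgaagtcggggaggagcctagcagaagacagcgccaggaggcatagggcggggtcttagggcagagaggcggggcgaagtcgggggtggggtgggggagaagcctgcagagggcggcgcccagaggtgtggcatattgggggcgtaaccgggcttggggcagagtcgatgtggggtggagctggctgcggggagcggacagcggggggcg
These lie at chr17:34972107-34972406, minus strand, for Hspa1a, at chr17:34959189-34959488, minus strand, for Hspa1b, at chr5:135887669-135887968, plus strand, for Hspb1, at chr9:18292017-18292316, plus strand, for Chordc1, and at chr11:23497990-23498289, minus strand, for Ahsa2. Hspa1a and Hspa1b shared 296 of 300 bases and held a single pair, starting 104 bases before the start in both. Hspb1 held pairs starting 117 and 97 bases before its start. Chordc1 held 5 overlapping or neighbouring pairs around its start, which included runs of 3 alternating units. Of the 7 members with a promoter, 5 held either pair, and neither Dnajb1 nor Ahsa2 held these letters in the window. Hsph1 was the fifth with a pair, and it also held a run of 3 units. Among all 32851 promoters in the table, 15.1% held either pair and 0.603% a run of 3 units. A match describes letters and not binding.

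In sums over all cells the inducible HSP70 genes were lower in the libraries labelled shPgk1. Hspa1a, at chr17:34969190-34972156 on the minus strand (GENCODE M21, GRCm38), was at 183, 283 and 381 CPM in shNC and 114, 52.7 and 49.4 CPM in shPgk1. Hspa1b, a near-identical copy 9951 bases away at chr17:34956436-34959238, was at 167, 262 and 347 CPM in shNC and 145, 131 and 106 CPM in shPgk1. In both genes each shNC library was above each shPgk1 library, and shNC library 3 was highest. The log2 folds of shPgk1 over shNC were -1.91 ± 0.40 (SE) for Hspa1a and -0.95 ± 0.26 for Hspa1b. The coding sequences of this gene pair were 99.5% identical and their 3' untranslated parts 51.4% identical by alignment. The sources used here do not say how reads that fit both copies were assigned, so the split between them is uncertain.

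The Hspa1 copies differed by lineage in a way the sum over all cells hides. In tumour-like cells Hspa1a was at 34.6, 56.1 and 99.3 CPM in shNC and 22.1, 9.41 and 7.95 CPM in shPgk1, while Hspa1b was at 180.4, 275 and 339 CPM in shNC and 159.8, 148 and 128 CPM in shPgk1. Hspa1b was the higher of the copies in 6 of 6 libraries. As a share of the counts of both copies, Hspa1a took 16.1, 16.9 and 22.6% in shNC and 12.2, 5.96 and 5.86% in shPgk1, with 95% Wilson intervals that reached from 5.42% to 23.3% over the 6 libraries. The share in monocyte or macrophage-like cells was 63.6, 63.5 and 61.9% in shNC and 65.3, 59.3 and 64.7% in shPgk1. Across the other 4 lineages its share lay between 47.3% and 69.7%, above every tumour-like value. The intervals cover counting error only.

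**Figure D1:**
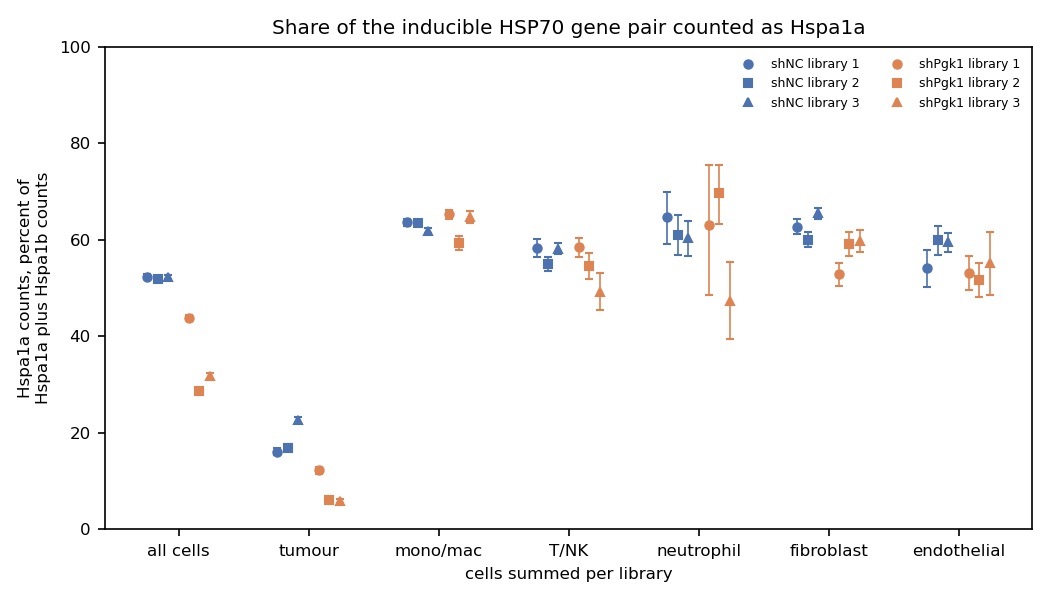
Counts of Hspa1a as a percent of Hspa1a plus Hspa1b counts, for sums over all cells and over each lineage (horizontal axis), 1 point per library with its 95% Wilson interval. All 6 tumour-like points lie between 5.86% and 22.6%, below all points of the other lineages.

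The low Hspa1a count in tumour-like cells was set beside RNA that reaches all droplets. Markers of other cell types (45 to 54 per library) had a median level in tumour-like cells of 18.8, 18.2 and 22.8% in shNC and 18.8, 16.2 and 15.6% in shPgk1, as a percent of their level over all cells. Hspa1a, measured the same way, stood at 18.9, 19.8 and 26.1% in shNC and 19.5, 17.9 and 16.1% in shPgk1, between the quartiles of those markers in 6 of 6 libraries. Whether this Hspa1a level is background or low expression was not tested. Those markers also served to name the clusters, while the members were left out of the clustering. Hspa1b stood at 108, 105 and 97.9% in shNC and 110.0, 113 and 120.2% in shPgk1, far above the upper quartile of the markers in every library. The highest single marker was at 187.6% in shNC library 3, above Hspa1b there. The tumour-like fold of Hspa1a, -2.14 ± 0.58, is a difference between levels in the range of those markers. That of Hspa1b, -0.72 ± 0.20, rests on levels far above their upper quartile.

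**Figure D2:**
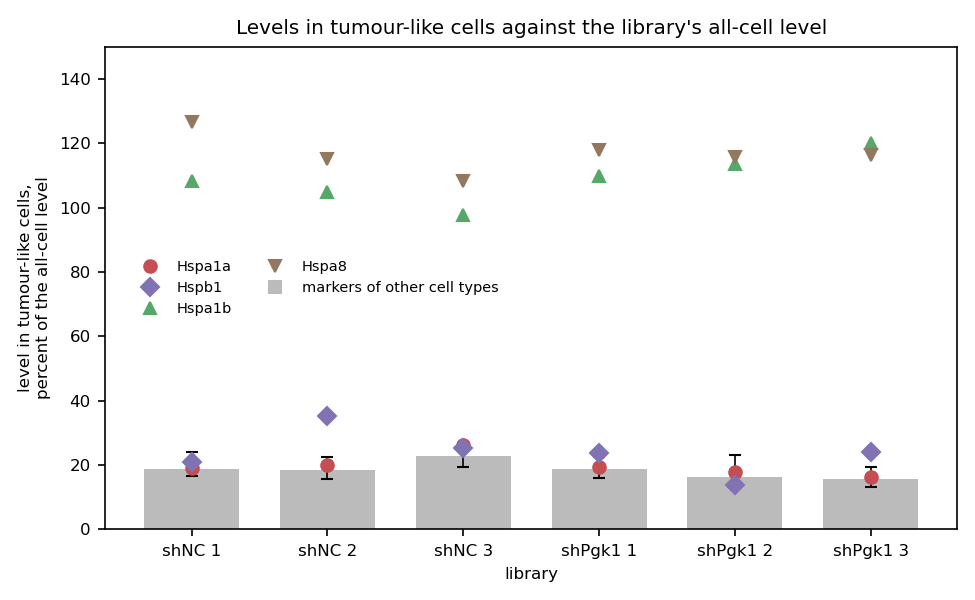
Level in tumour-like cells as a percent of the level over all cells of the same library. Grey bars give the median of markers of other cell types with their quartiles, and symbols give Hspa1a, Hspb1, Hspa1b and Hspa8. Hspa1a sits at the bars, from 16.1% to 26.1%, and Hspa1b higher, from 97.9% to 120.2%.

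Monocyte or macrophage-like cells expressed both copies, and both were lower in the shPgk1 libraries. Hspa1a there was at 279, 414 and 554 CPM in shNC and 196, 108 and 107 CPM in shPgk1. Hspa1b was at 159, 238 and 341 CPM in shNC and 104, 74.0 and 58.6 CPM in shPgk1. The groups did not overlap for either gene, and the log2 folds were nearly equal, -1.65 ± 0.38 for Hspa1a and -1.69 ± 0.37 for Hspa1b. Leaving out 1 library at a time moved the Hspa1a fold between -2.01 and -1.39. With each cell thinned to 1000 UMIs (unique molecular identifiers, 1 per captured molecule), the share of these cells that held Hspa1a was 16.3, 26.8 and 35.0% in shNC and 14.0, 8.47 and 8.16% in shPgk1. The corresponding share in tumour-like cells was 4.07, 6.32 and 10.2% in shNC and 2.62, 1.11 and 0.821% in shPgk1. Without thinning the shares in monocyte or macrophage-like cells were 59.2, 72.6 and 84.8% in shNC and 58.1, 34.5 and 35.4% in shPgk1, at median depths of 12744 to 17371 UMIs, against 8248 to 15482.5 in tumour-like cells.

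In the remaining lineages the pattern held only in part. T or NK-like cells held Hspa1a at 210.2, 530.5 and 778 CPM in shNC and 209.6, 199 and 91.2 CPM in shPgk1, so shNC library 1 and shPgk1 library 1 were level. The log2 fold there was -1.61 ± 0.66, and Hspa1b overlapped between groups at -1.50 ± 0.60. Fibroblast-like cells held Hspa1a at 282, 365 and 457 CPM in shNC and 266, 187 and 196 CPM in shPgk1, with no overlap and a fold of -0.81 ± 0.20. Endothelial-like cells held 319, 415 and 741 CPM in shNC and 466, 230.4 and 156 CPM in shPgk1, with shPgk1 library 1 above shNC libraries 1 and 2. Neutrophil-like cells held 184, 381 and 613 CPM in shNC and 228, 286 and 131 CPM in shPgk1, again with overlap. These lineages are thin, with 41 to 100 endothelial-like cells and 60 to 420 neutrophil-like cells per library. Ordered by the mean of 6 libraries, Hspa1a ran from endothelial-like (388 CPM) through T or NK-like (336), neutrophil-like (304), fibroblast-like (292) and monocyte or macrophage-like (276) to tumour-like cells (38.2). Neighbours among the first 5 overlapped over libraries, while monocyte or macrophage-like cells exceeded tumour-like cells in 6 of 6 libraries.

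**Figure D3:**
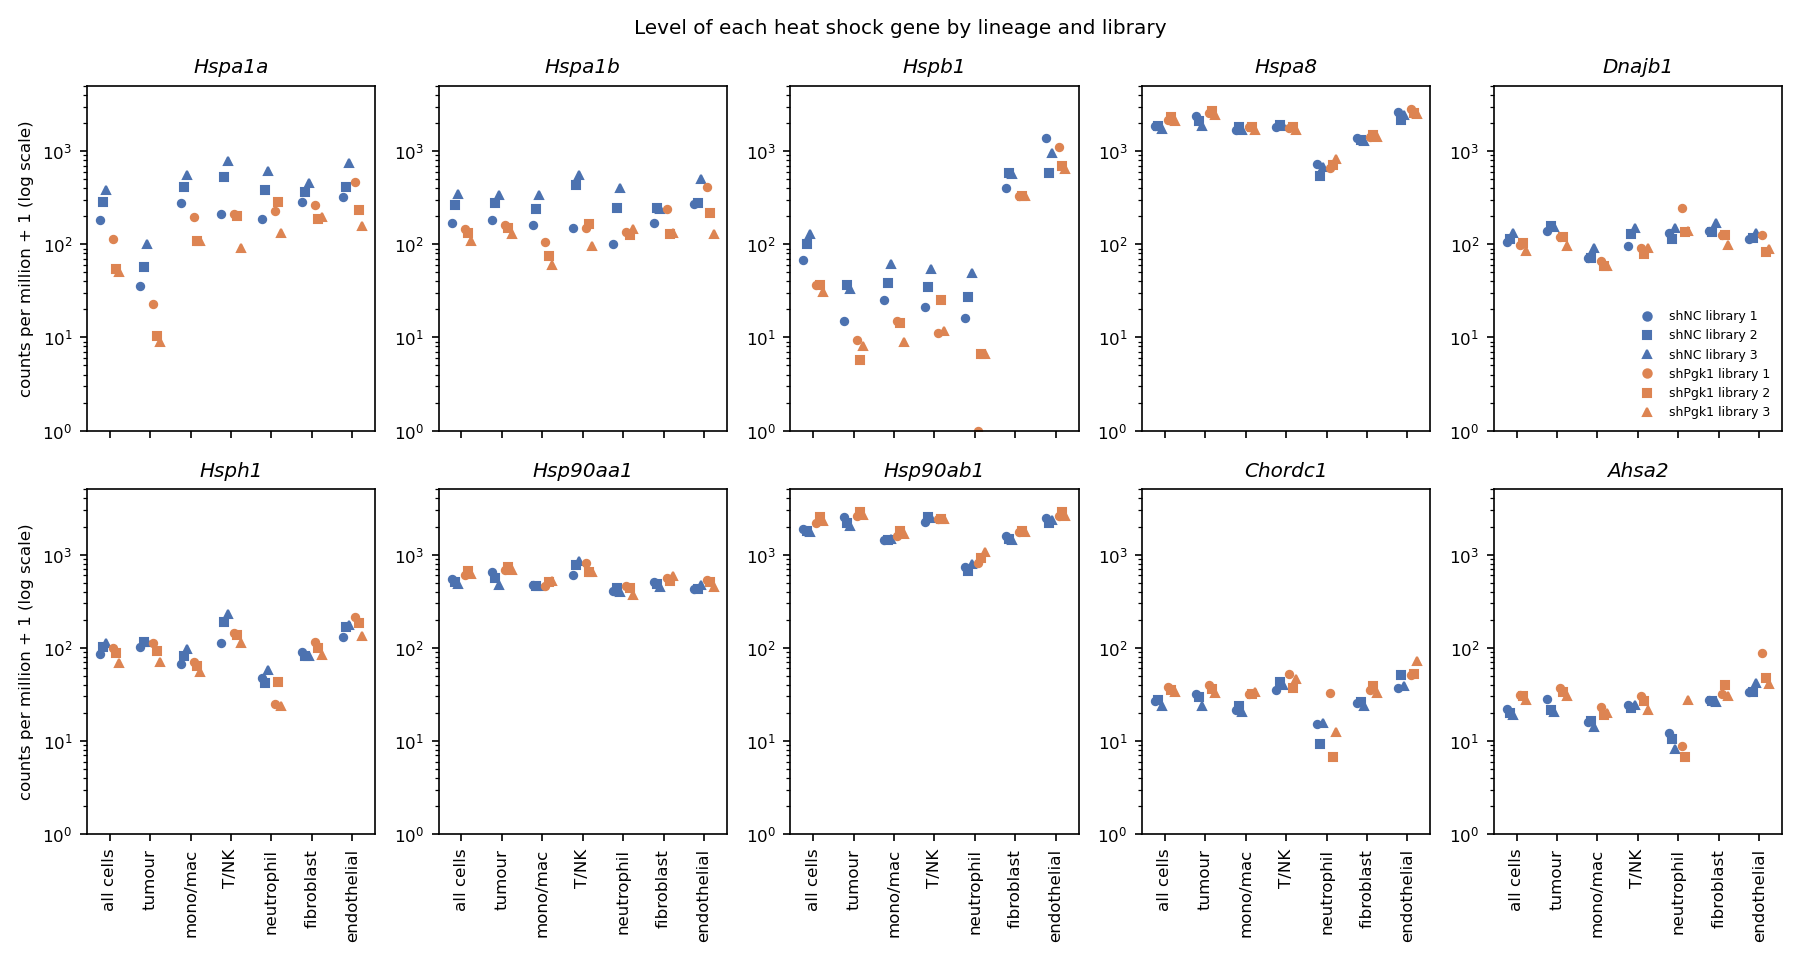
Level of each of the 10 genes (CPM plus 1, log scale) in sums over all cells and over each lineage, 1 point per library, with shNC in blue and shPgk1 in orange. Hspa1a is lowest in tumour-like cells, between 7.95 and 99.3 CPM, and Hspb1 is high in fibroblast-like and endothelial-like cells.

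Hspb1, the small heat shock protein that binds unfolding proteins without using ATP, was highest in stromal cells. The gene lies at chr5:135887919-135889563 on the plus strand. Fibroblast-like cells held 403, 588 and 563 CPM in shNC and 329, 325 and 325 CPM in shPgk1. Endothelial-like cells held 1367, 588 and 948 CPM in shNC and 1108, 695 and 641 CPM in shPgk1. The groups did not overlap in fibroblast-like cells, with a log2 fold of -0.70 ± 0.14, and overlapped in endothelial-like cells, with -0.30 ± 0.40. In every other lineage Hspb1 was at 60.4 CPM or less. In tumour-like cells it was at 13.9, 35.4 and 32.5 CPM in shNC and 8.47, 4.77 and 7.06 CPM in shPgk1, with a fold of -1.86 ± 0.39. As a percent of its level over all cells this was 20.8, 35.2 and 25.1% in shNC and 23.8, 13.6 and 23.8% in shPgk1. Those percentages lay between the quartiles of the markers of other cell types in shNC libraries 1 and 3, above them in shNC library 2 and shPgk1 libraries 1 and 3, and below them in shPgk1 library 2. Over all cells Hspb1 was at 66.8, 101 and 129 CPM in shNC and 35.6, 35.2 and 29.6 CPM in shPgk1, with a fold of -1.50 ± 0.23. The share of kept cells that were fibroblast-like was 5.26, 5.32 and 6.97% in shNC and 2.71, 4.47 and 3.58% in shPgk1, and the part of this share in the sum over all cells was not tested.

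The partners of HSP70 differed less between the labels. Dnajb1, the J-domain protein that delivers clients to HSP70, was at 70.1, 71.1 and 90.6 CPM in shNC and 65.0, 57.8 and 56.8 CPM in shPgk1 in monocyte or macrophage-like cells. Each shNC library was above each shPgk1 library, with a log2 fold of -0.42 ± 0.12. In tumour-like cells it was at 139.5, 158 and 153 CPM in shNC and 119.5, 117 and 94.8 CPM in shPgk1, also without overlap, with a fold of -0.29 ± 0.11. Dnajb1 was lower without overlap in T or NK-like (-0.53 ± 0.16) and fibroblast-like cells (-0.39 ± 0.13) as well. Hsph1, the HSP110 exchange factor, overlapped between groups in every lineage. Its tumour-like levels were 100.2, 115 and 114 CPM in shNC and 110.4, 91.3 and 69.6 CPM in shPgk1. The tumour-like fold of Hsph1 was -0.14 ± 0.14, the fibroblast-like fold 0.20 ± 0.13 and the endothelial-like fold 0.14 ± 0.19. Larger Hsph1 folds were found in monocyte or macrophage-like (-0.43 ± 0.16), T or NK-like (-0.45 ± 0.30) and neutrophil-like cells (-0.67 ± 0.31). Hsph1 was highest in endothelial-like cells (mean 166 CPM) and T or NK-like cells (153).

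Hspa8, the constitutive HSP70 family member, is among the most abundant members. Its levels over all cells were 1876, 1837 and 1713 CPM in shNC and 2153, 2338 and 2101 CPM in shPgk1. The shPgk1 libraries were higher without overlap, at a log2 fold of 0.35 ± 0.07. The tumour-like fold was 0.42 ± 0.12, while monocyte or macrophage-like cells overlapped at -0.01 ± 0.09 and T or NK-like cells at -0.08 ± 0.09. The tumour-like folds of Hspa8 and Hspa1b had opposite signs. Its SE exceeded its fold in monocyte or macrophage-like cells.

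The cytosolic HSP90 genes were higher in the shPgk1 libraries. Hsp90ab1, the constitutive form, was at 2528, 2207 and 2025 CPM in shNC and 2596, 2853 and 2675 CPM in shPgk1 in tumour-like cells. In monocyte or macrophage-like cells it was at 1442, 1429.6 and 1486 CPM in shNC and 1582, 1797 and 1652 CPM in shPgk1. The groups did not overlap in either lineage, and the folds were 0.41 ± 0.12 and 0.16 ± 0.08. Hsp90aa1, the more inducible form, was at 653, 556 and 472 CPM in shNC and 679, 743 and 675 CPM in shPgk1 in tumour-like cells, with a fold of 0.47 ± 0.13. Hsp90aa1 overlapped in monocyte or macrophage-like cells, at 0.05 ± 0.08. In T or NK-like cells neither gene separated the groups.

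The HSP90 co-chaperones were higher without overlap in the shPgk1 libraries in tumour-like, monocyte or macrophage-like and fibroblast-like cells. Chordc1, a zinc-binding HSP90 partner, was at 20.6, 22.5 and 19.4 CPM in shNC and 31.1, 30.7 and 32.3 CPM in shPgk1 in monocyte or macrophage-like cells. All 3 shPgk1 libraries stood above all 3 shNC libraries, with a gap wider than the spread within either group and a log2 fold of 0.54 ± 0.09. In tumour-like cells it was at 30.6, 28.3 and 22.6 CPM in shNC and 39.1, 35.0 and 31.5 CPM in shPgk1, and its fold was 0.52 ± 0.12. In fibroblast-like cells the fold was 0.48 ± 0.13, while the groups overlapped in T or NK-like (0.22 ± 0.16) and endothelial-like cells (0.40 ± 0.21). Ahsa2, a relative of the HSP90 ATPase activator Ahsa1, was at 26.9, 20.6 and 19.4 CPM in shNC and 35.9, 32.8 and 29.4 CPM in shPgk1 in tumour-like cells, with a fold of 0.69 ± 0.13. In monocyte or macrophage-like cells it was at 14.9, 15.5 and 13.2 CPM in shNC and 22.0, 17.8 and 19.1 CPM in shPgk1, with a fold of 0.39 ± 0.11. Ahsa2 had a fold of 0.34 ± 0.14 in fibroblast-like cells and overlapped in T or NK-like (0.15 ± 0.17) and endothelial-like cells (0.64 ± 0.28). Neither gene had enough counts for a fit in neutrophil-like cells. Chordc1 lies at chr9:18292125-18317442 on the plus strand and Ahsa2 at chr11:23487882-23498030 on the minus strand.

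**Figure D4:**
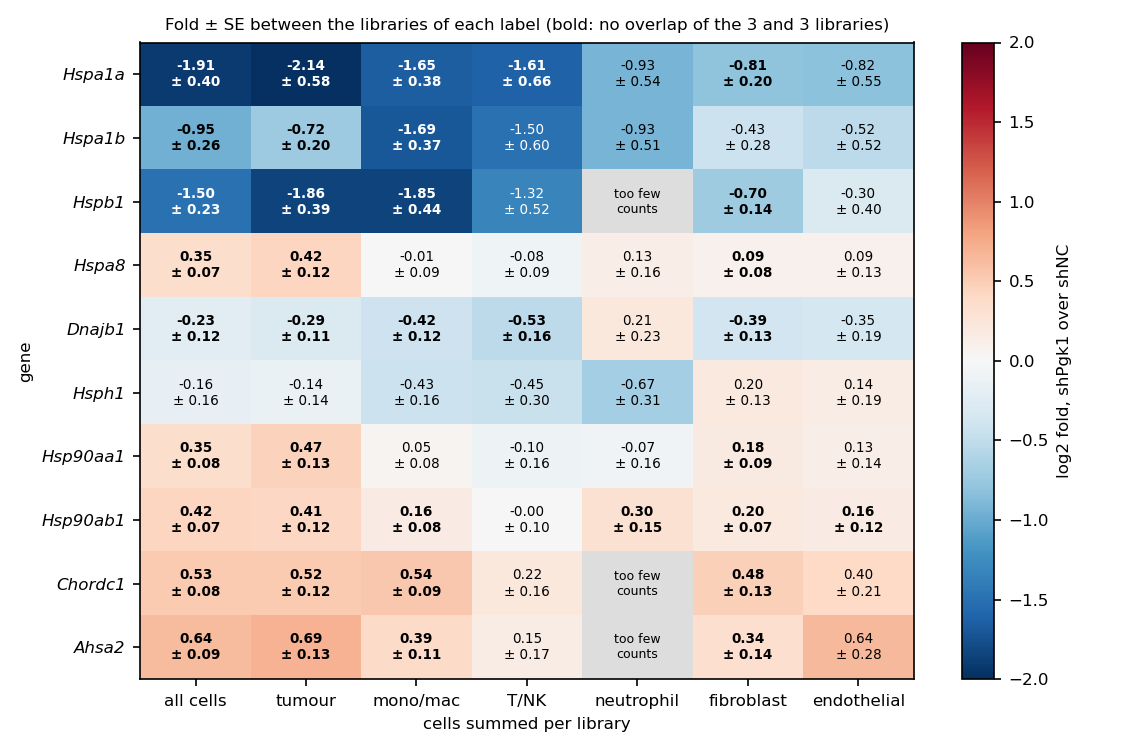
Log2 fold of shPgk1 over shNC libraries with its SE for each gene (rows) in sums over all cells and each lineage (columns). Bold marks genes whose 3 and 3 libraries did not overlap, and grey marks too few counts. Hspa1a is negative in every column and Chordc1 and Ahsa2 are positive in every column with enough counts.

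Counted over the set, over all cells edgeR's quasi-likelihood test placed 5 members past an adjusted p of 0.05 as higher and 3 as lower, against 9.45% and 7.2% of all genes tested. In tumour-like cells it placed 2 higher and 1 lower, against 3.61% and 5.31%, and in monocyte or macrophage-like cells 1 higher and 0 lower, against 0.103% and 0.649%. Because the members were picked on this contrast, nothing is read from these counts. They also depend on single libraries. Over all cells the 8 called members became 0 without shNC library 2, shPgk1 library 2 or shPgk1 library 3, and 4 without shNC library 3. In tumour-like cells the 3 became 0 without shNC library 2, shNC library 3, shPgk1 library 2 or shPgk1 library 3, and 7 without shNC library 1. In monocyte or macrophage-like cells the 1 became 0 without shNC library 1, shNC library 3, shPgk1 library 2 or shPgk1 library 3. DESeq2 called 8 members over all cells, 8 in tumour-like cells and 4 in monocyte or macrophage-like cells. The number of all genes called moved as well. With each library left out it ran from 3 to 5173 over all cells and from 5 to 4116 in tumour-like cells. In monocyte or macrophage-like cells it ran from 15 to 413. DESeq2 also called more genes than edgeR in each, as given in the last section, so nothing is read from these member counts either.

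The median log2 fold of the members over all cells was 0.10, against -0.05 over all genes tested, since members of both directions were picked. Over all cells 5 members were higher without overlap and 4 lower, beside 15.9% and 25.7% of all genes. In tumour-like cells the same 5 genes were higher (Hspa8, Hsp90aa1, Hsp90ab1, Chordc1 and Ahsa2) and Hspa1a, Hspa1b, Hspb1 and Dnajb1 were lower, beside 8.01% and 30.5%. Of these, Hspa1a lay at the level of markers of other cell types, and Hspb1 was at 35.4 CPM or less. Of the members in monocyte or macrophage-like cells, 3 were higher (Hsp90ab1, Chordc1 and Ahsa2) and the same 4 lower, beside 15.7% and 9.37%. Fibroblast-like cells had 5 higher and 3 lower, beside 8.52% and 6.39%. T or NK-like cells had 0 higher and 2 lower (Hspa1a and Dnajb1), beside 6.56% and 6.81%. Endothelial-like cells had 1 higher (Hsp90ab1) and 0 lower, beside 7.39% and 5.15%. Neutrophil-like cells, where 7 members passed the filter on low counts, had 1 higher (Hsp90ab1) and 0 lower, beside 9.74% and 5.02%.

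The directions were also read within single clusters, since the share of cells in each cluster differed between groups. Over 13 clusters Hspa1a and Hspb1 were lower without overlap in 8 each, and Hspa1b and Dnajb1 in 7 each. For Hspa1a and Hspb1 the 8 include both tumour-like clusters. In that lineage Hspa1a lay at the level of markers of other cell types. Hspb1 lay between, above or below their quartiles there, depending on the library. For Hspa1a the 8 also include an unnamed cluster with group means of 55.1 CPM in shNC and 16.3 CPM in shPgk1. For Hspb1 they include the neutrophil-like cluster, with 0, 3 and 3 counts in shPgk1. Ahsa2 was higher without overlap in 8, Hsp90ab1 in 7 and Chordc1 in 6, and none of these genes separated the other way in any of the 13. The share of all genes that separated was not computed per cluster, so nothing is read from these counts. The fibroblast-like and neutrophil-like clusters repeat the sums of their lineages. The largest monocyte or macrophage-like clusters gave Hspa1a folds of -1.98 ± 0.49 and -1.33 ± 0.27 and Chordc1 folds of 0.63 ± 0.10 and 0.46 ± 0.10. The tumour-like clusters gave Hspa1b folds of -0.75 ± 0.24 and -0.45 ± 0.17 and Ahsa2 folds of 0.58 ± 0.12 and 0.43 ± 0.14. In the same order Hspa8 had 0.16 ± 0.08 and 0.29 ± 0.13. Hsp90aa1 had 0.24 ± 0.09 and 0.33 ± 0.15, and Hsp90ab1 0.19 ± 0.08 and 0.33 ± 0.13. The folds of Hspa8, Hsp90aa1 and Hsp90ab1 were smaller in both clusters than in the whole lineage. In the smaller cluster Hspa8, Hsp90aa1 and Ahsa2 overlapped between groups. Hsph1 differed between the macrophage-like clusters, at -0.82 ± 0.24 and -0.02 ± 0.10, a difference that was not tested.

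Within a library, cells with the most Hspa1b also had more of some members. The tenth of monocyte or macrophage-like cells with the highest Hspa1b share of UMIs (157 to 278 cells per library) was compared with the rest. The ratio of levels was 4.66 to 19.7 for Hspa1a over the 6 libraries, 3.70 to 15.2 for Hspb1, 2.16 to 4.33 for Hsph1, 1.78 to 2.85 for Dnajb1 and 1.504 to 3.611 for Hsp90aa1. Bag3, an HSP70 exchange factor outside the set, had a ratio of 1.78 to 3.61. The ratios were 0.836 to 1.196 for Chordc1 and 0.795 to 1.21 for Ahsa2, which spanned 1, and 0.851 to 0.975 for the cytoskeletal actin gene Actb. Hspa8 (1.22 to 1.53) and Hsp90ab1 (1.08 to 1.34) were also above 1 in 6 of 6 libraries, by less. The chosen cells had median depths of 7704 to 13701 UMIs against 12909 to 17820.5 in the rest.

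The same comparison in tumour-like cells (193 to 356 cells per library) gave a different order of genes. Cells high in Hspa1b had ratios of 3.27 to 7.16 for Dnajb1, 3.28 to 6.27 for Hsph1 and 2.54 to 4.55 for Bag3. For Hspa1a the ratio was 0.873 to 2.39, with a median of 1.22 over the 6 libraries, against a median of 13.1 in monocyte or macrophage-like cells. Cells chosen by Hspa1a instead had ratios of 0.923 to 1.58 for Dnajb1 and 0.860 to 1.89 for Hspa1b. For Hspb1 the ratio in those cells was 0.939 to 19.0, with a median of 2.18. In the cells high in Hspa1b the ratio of Chordc1 spanned 1, at 0.767 to 1.10. That of Ahsa2 in the same cells was below 1 in 6 of 6 libraries, at 0.716 to 0.923. The cells high in Hspa1b were shallower, with median depths of 4972.5 to 6923.5 UMIs against 8735.5 to 16860 in the rest. Cells chosen by Hspa1a had median depths of 4149 to 21470 UMIs against 8850 to 14624 in the rest. The part of depth in the ratios of either lineage was not tested.

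**Figure D5:**
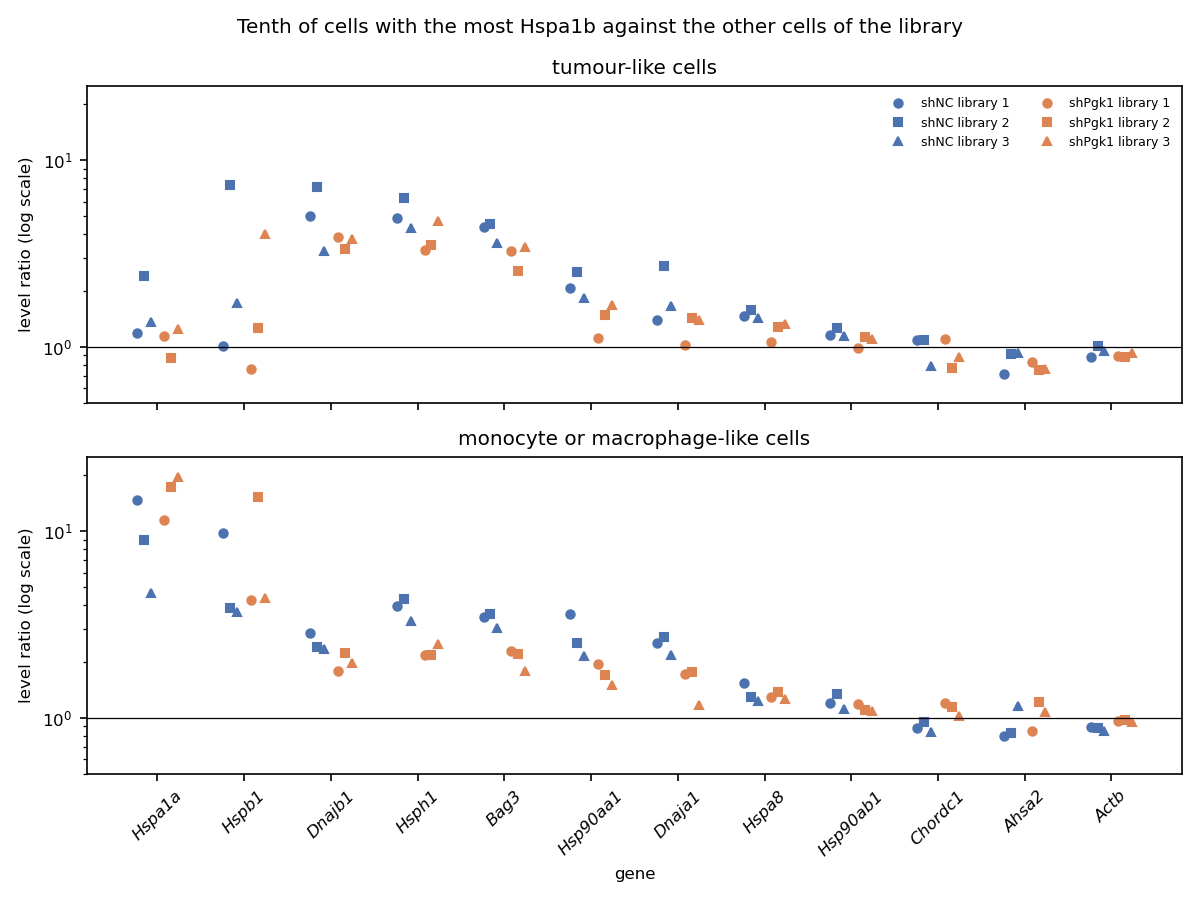
Ratio of the level in the tenth of cells with the most Hspa1b to the level in the other cells (log scale), by gene and library, in tumour-like cells (top) and monocyte or macrophage-like cells (bottom). Dnajb1, Hsph1 and Bag3 lie above 1 in both, while Hspa1a lies above 4 only in the lower panel.

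The genes whose pattern was most like that of Hspa1a were sought over 36 sums (6 lineages in 6 libraries, lineage means removed) among 5639 genes with a mean of at least 20 CPM. These points share libraries and background RNA, so r is a description. Gm-numbered, Rik and -ps gene names were left out of the ranking. Outside the set the closest of the remaining genes were AY036118 (r = 0.874), Col5a2 (0.845), Ppfia3 (0.824), Marf1 (0.822) and the clock gene Per1 (0.813). Col5a2 was high only in fibroblast-like cells, where the groups overlapped (659, 880 and 1004 CPM in shNC, 1151, 836 and 872 CPM in shPgk1). In every other lineage it was at 56.3 CPM or less, so its likeness to Hspa1a rests on low levels. Within the set r was 0.901 for Hspa1b, 0.699 for Hspb1, 0.681 for Hsph1 and 0.677 for Dnajb1. It was -0.59 for Hsp90ab1, -0.44 for Hspa8, -0.42 for Chordc1, -0.41 for Ahsa2 and -0.24 for Hsp90aa1. The difference between the labels stays in these sums, and the members were picked on it in both directions. Nothing is therefore read from the signs of r within the set. AY036118, a transcript known for its likeness to ribosomal RNA, was at 24893, 31756 and 32314 CPM in shNC and 22513, 18232 and 19263 CPM in shPgk1 over all cells. It lay between 17068 and 33954 CPM over the lineages, with no overlap of the groups over all cells, and its part in the results was not tested.

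Other chaperone genes were taken from fixed lists that hold none of the 10 members, and these were tested with edgeR's quasi-likelihood test. The lists were chosen with earlier results of these data known, so their counts are not independent support. Of all genes tested over all cells, 9.45% were called higher and 7.2% lower. Over all cells the subunits of the chaperonin TRiC and of prefoldin, which fold actin and tubulin, had 11 of 14 higher and 0 lower, with a median log2 fold of 0.42 against -0.05 over all genes. Cct6a (0.60 ± 0.10, adjusted p = 0.019) and Cct5 (0.60 ± 0.10, adjusted p = 0.019) had the largest folds among the 4 named. Mitochondrial chaperones had 7 of 10 higher and 0 lower, among them Hspd1 (0.52 ± 0.09, adjusted p = 0.019). HSP90 co-chaperones had 6 of 14 higher, among them Fkbp4 (0.49 ± 0.07, adjusted p = 0.0179) and Ppid (0.67 ± 0.10, adjusted p = 0.018), which bind HSP90 through tetratricopeptide repeats. Small heat shock proteins went both ways, with Hspb8 higher (0.67 ± 0.15, adjusted p = 0.031) and Cryab, the lens crystallin also made in stroma, lower (-1.08 ± 0.23, adjusted p = 0.0296).

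The remaining lists had fewer genes past the threshold over all cells. Other HSP70, HSP110 and exchange-factor genes had 3 of 15 higher (Bag2, Bag5 and St13), and other HSP40 genes 3 of 14 (Dnaja1, Dnajc2 and Dnajc21). Of 9 heat shock factors and regulators only Jmjd6 passed (0.33 ± 0.08, adjusted p = 0.0341), and Hsf1 itself did not (0.20 ± 0.07, adjusted p = 0.0779). Of 16 endoplasmic reticulum chaperones only Hspa5 passed (0.27 ± 0.07, adjusted p = 0.0492). Among 18 immediate early genes, which dissociation also induces, Fos was higher (0.49 ± 0.10, adjusted p = 0.024) and 4 were lower, Egr2, Btg2, Nr4a1 (-0.75 ± 0.18, adjusted p = 0.0378) and Socs3, the last named after its value was seen. The 4 lower and the 1 higher gene stand in the same libraries as the lower Hspa1a. The median log2 fold of the whole immediate early list was 0.16, against -0.05 over all genes.

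By lineage these lists gave less. In tumour-like cells edgeR placed 8 list genes higher, Ahsa1 (0.58 ± 0.12, adjusted p = 0.033), Ppid, Bag1, Bag2, Bag5, Dnaja1 (0.47 ± 0.11, adjusted p = 0.0381), Hikeshi and Fos, and 1 lower, Nr4a1 (-0.79 ± 0.20, adjusted p = 0.046). Of all genes tested in tumour-like cells, 3.61% were called higher and 5.31% lower. No TRiC or mitochondrial chaperone gene passed there. In the edgeR test 11 of 14 and 4 of 10 of them had an unadjusted p below 0.05, beside 5728 of all 16302 genes tested. In monocyte or macrophage-like cells edgeR placed 0 of 118 list genes past the threshold, and DESeq2 placed 4 higher and 1 lower. With edgeR 41 of the 118 had an unadjusted p below 0.05, beside 2794 of all 15566 genes tested. These calls rest on few libraries as well. Over all cells 37 higher and 5 lower list genes became 0 and 0 without shNC library 2, shPgk1 library 2 or shPgk1 library 3, and 15 and 2 without shNC library 3. In tumour-like cells 8 and 1 became 0 and 0 without any of the same 3 libraries, and 1 and 0 without shNC library 3. They became 49 and 7 without shNC library 1, and 17 and 2 without shPgk1 library 1. All genes called ranged with them, from 3 to 5173 over all cells and from 5 to 4116 in tumour-like cells.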

How the data were processed

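The deposited matrices hold raw UMI counts per gene and cell, made with PISA 0.12 per the file headers. The submitters' processing notes name Seurat 4 and the builds GRCh38 and hg38, although the gene names are mouse. For the aligner, the annotation and reads that fit several genes, the settings were not given in the sources used here. Depth per library ran from 78778073 to 128933960 counts. Barcodes needed 500 UMIs, 300 genes and at most 20% mitochondrial counts. Scrublet scores above 0.25 were left out as doublets, a limit set because the tool's own threshold marked 1 barcode in 4 libraries. Cells were clustered with scanpy 1.11.5 (Python 3.11.15) and leidenalg 0.10.2 at resolution 0.5 and named from listed markers. The endothelial and pericyte cells of a shared cluster were split cell by cell after the clusters were seen. Counts summed per library and lineage were fitted with edgeR 4.0.16 (quasi-likelihood, TMM, filterByExpr) in R 4.3.3, with Benjamini-Hochberg adjustment over all genes tested and a threshold of 0.05. DESeq2 1.42.0 was an alternative. The fits were tested on simulated data. The members and gene lists were chosen with earlier results of these data known. The text names the 10 members, up to 4 genes per list with the smallest p, and the 5 ranked genes most like Hspa1a by log2(CPM + 1). Same-numbered libraries were not taken as pairs. The result of 1 gene list is not reported here.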

Additional observations from a re-analysis of the deposited data

How the results depend on the processing

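Without each library in turn, the genes past the threshold ranged from 3 to 5173 over all cells, 5 to 4116 in tumour-like cells, 15 to 413 in monocyte or macrophage-like cells, 7 to 62 in T or NK-like cells, 2 to 25 in neutrophil-like cells, 0 to 11 in fibroblast-like cells and 0 to 15 in endothelial-like cells. With all libraries these counts were 3250, 1454, 117, 19, 5, 4 and 5. DESeq2 in place of edgeR gave 4875 over all cells, 3190 in tumour-like, 594 in monocyte or macrophage-like, 64 in T or NK-like, 24 in neutrophil-like, 54 in fibroblast-like cells and 15 in endothelial-like cells. No filter on low counts gave 2784, 559, 353, 66, 363 and 107 in the 6 lineages in the same order. A fit with the replicate block gave 2627 over all cells, 599 in tumour-like, 39 in monocyte or macrophage-like, 27 in T or NK-like, 72 in neutrophil-like, 26 in fibroblast-like cells and 15 in endothelial-like cells. Same-numbered libraries had deviation correlations of 0.110, 0.059 and -0.039 over all cells, so the numbers do not show pairs. Cells picked by markers alone gave 52 in monocyte or macrophage-like, 33 in T or NK-like, 2 in neutrophil-like and 0 in endothelial-like cells. All deposited barcodes gave 31 in T or NK-like and 2 in fibroblast-like cells, and finer clusters, an alternative chosen after seeing the data, gave 86 in neutrophil-like and 3 in endothelial-like cells. The percent of called genes that were higher in tumour-like cells was 40.4 with edgeR, 59.1 with DESeq2 and 59.2 with no filter, and over all cells 56.7, or 44.8 with the replicate block. The level of Hspa1a in tumour-like cells was 19.7% of its all-cell level, and 23.7% with cells picked by markers. Of 67 member folds, 11 took both signs over the settings, 0 of them over all cells or in tumour-like or fibroblast-like cells. These were Hspa8 (-0.06 to 0.05) and Hsp90aa1 (-0.00 to 0.10) in monocyte or macrophage-like cells, Hspa8, Hsp90aa1, Hsp90ab1 and Ahsa2 in T or NK-like cells, Dnajb1 (-0.18 to 0.33) and Hsp90aa1 in neutrophil-like cells, and Hspb1 (-0.61 to 0.06), Hspa8 and Hsph1 in endothelial-like cells. Of the alternative values of member folds, 16 moved by more than the spread and 835 did not. Of the list genes named, 3191 values kept their side of the threshold, 117 passed it newly and 171 no longer passed.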
